A study of Homo sapiens with 8 samples.

Results

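EBC1 is a human lung cancer cell line labelled as squamous cell carcinoma, and it was grown here as pneumospheres, floating spheres in ultra-low attachment flasks. The medium was serum-free DMEM-F12 with FGF, EGF and B-27. The report compares 2 of the 8 libraries of the study: EBC1 spheres given a synthetic soluble form of PD-L1 (PD-L1s) at 25 µg/ml, in serum-free medium, over 15 min and EBC1 spheres labelled untreated. What the untreated spheres received during those 15 min is not given in the sources used here. The other 6 libraries are the same treated and untreated pairs of the adenocarcinoma lines H23, H820 and H1975. Each line is represented by 1 library per condition, so the EBC1 difference has no replicate check and no p-value is given for it. Genes were included where at least 1 EBC1 library held 50 or more counts, which left 13967 of the 60106 annotated genes. Levels are scaled counts per 1e6 (CPM), and every ratio is the log2 of treated over untreated CPM.

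Cells that receive a growth factor, a cytokine, a change of medium or a mechanical stimulus switch on immediate early genes within minutes, without making new protein first. Signals through MAP kinases and calcium activate factors that already sit at the promoters, among them SRF with its partners and CREB, and the first products are transcription factors such as FOS, FOSB and EGR1. FOS and FOSB pair with JUN proteins to form AP-1, while DUSP phosphatases and mRNA-destabilizing proteins such as ZFP36 end the response. PD-L1, the product of CD274, is best known as the ligand of the T cell receptor PD-1 (PDCD1).

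The upstream promoter sequence of FOSB and FOS is shown because these were the early genes furthest above the trends of the pair. The 120 bases before each gene start are given from RefSeq on GRCh38.p14, 5′ to 3′, with the letters TGACGT, the core of a CREB-type element, in capitals. FOSB is read on the plus strand at chr19:45467876-45467995 and FOS on the plus strand at chr14:75278708-75278827.
FOSB: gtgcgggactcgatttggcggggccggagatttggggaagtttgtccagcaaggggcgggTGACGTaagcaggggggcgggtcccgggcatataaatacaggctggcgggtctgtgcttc
FOS: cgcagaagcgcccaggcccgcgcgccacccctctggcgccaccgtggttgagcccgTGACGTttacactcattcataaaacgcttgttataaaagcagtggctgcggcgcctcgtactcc
The motif begins 60 bases before the FOSB start and 64 bases before the FOS start. Searched on both strands of the 250 upstream bases, TGACGT was present in 14 of the 55 early response genes with a RefSeq promoter entry (25.5%) and in 7.10% of all 35116 promoters. The TATAAA letters, searched the same way, were present in 15 of the 55 (27.3%) and in 10.7% of all promoters. The GC-rich letters GGGCGG were present in 36 of the 55 (65.5%) and in 42.6% of all promoters. The AP-1 site TGACTCA was present in 2 of the 55 (3.64%) and in 4.20% of all. The CArG box, the element of SRF, was present in 2 of the 55 (3.64%) and in 1.16% of all. A match describes letters in the window and is no evidence of binding.

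The EBC1 pair is uneven in depth. The untreated library held 5894946 counts and the treated library 27524854, a ratio of 4.67, while the other 6 libraries held 5559870 to 23783679. The log2 CPM of the 2 EBC1 libraries correlated at 0.988 over 24185 genes (Pearson's r, a description), against at most 0.883 for an EBC1 library with a library of another line. PLXNB2, a plexin expressed in the other lines with at least 2544 counts per library, had 0 counts in both EBC1 libraries. All 14 epithelial markers exceeded 1 CPM in both libraries, among them CDH1 at 1132 and 1285 CPM. Of 15 squamous lineage markers, 4 exceeded 1 CPM in both (SOX2, KRT15, S100A2 and PERP). The squamous regulator TP63 had 1 and 7 counts, and KRT5, KRT14, DSG3 and CALML3 had 0 in both, so these defining markers of the labelled type were absent or nearly so.

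FOSB stood higher in the treated EBC1 library by more than any other well-counted protein-coding gene. The gene (ENSG00000125740.13_3, GRCh37 chr19:45971253-45978437, plus strand) had 270 counts untreated and 3556 treated, or 51.9 and 159 CPM, a log2 ratio of 1.61 with an exact 95% interval of 1.44 to 1.80. FOS (ENSG00000170345.9_3, chr14:75745477-75748933, plus strand) had 281 and 2670 counts, or 54.0 and 120 CPM, a log2 ratio of 1.14 (0.97 to 1.33). These intervals, here and below, cover counting error only, and PCR copies without molecular identifiers are not independent molecules. The intervals use the counts without the prior, so at low counts the ratio need not lie in their middle. Among the 9611 protein-coding genes with 50 or more counts in both libraries and a GC value, FOSB ranked 1 and FOS ranked 2, both before and after the trends described below were removed. In bulk RNA, more cells expressing a gene and more RNA per cell cannot be told apart.

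**Figure D1:**
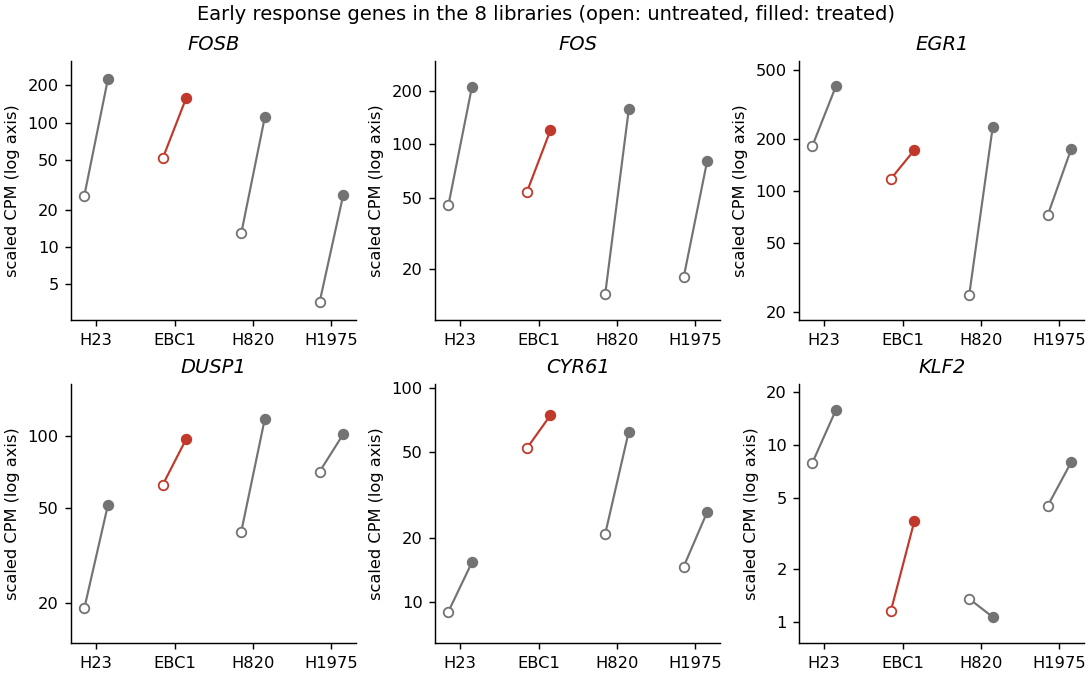
Scaled CPM on log axes for FOSB, FOS, EGR1, DUSP1, CYR61 and KLF2 in the 8 libraries, with 1 library per point, open for untreated and filled for treated, lines joining each cell line's pair and EBC1 in red. FOSB and FOS started higher in untreated EBC1 (51.9 and 54.0 CPM) than in any other untreated library, and their lines are flatter in EBC1.

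The other lines give a test that uses neither EBC1 library. FOSB was at 25.9 and 224 CPM in untreated and treated H23, 12.9 and 111 in H820, and 3.62 and 26.2 in H1975. FOS was at 45.5 and 209 CPM in H23, 14.6 and 157 in H820, and 18 and 81.0 in H1975. The untreated EBC1 value was thus the highest of the 4 untreated values for both genes, and every treated value exceeded the untreated value of its own line. In edgeR's quasi-likelihood test with line and treatment as terms (n = 3 lines, Benjamini-Hochberg over 23733 genes), FOSB rose by 3.01 ± 0.12 on the log2 scale (SE, adjusted p = 1.5e-06) and FOS by 2.50 ± 0.20 (adjusted p = 0.00111), each in 3 of 3 lines. The test called 5 genes higher, 0.0211% of those tested, and 0 lower, with 553 genes at an unadjusted p under 0.05. Without the pairing by line it called 0 genes in either direction.

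Whether the EBC1 response differs from the others was tested with an interaction term over all 8 libraries, the EBC1 pair among them. EBC1 enters as 1 pair, so the spread behind these p-values comes from the other 3 lines alone, and EBC1 is assumed to vary like them. Of 24185 genes, 2 were called higher in EBC1 (0.00827%) and 1 lower (0.00413%), and none of the 3 was an early gene. The FOSB response was 1.41 log2 units smaller in EBC1 (interaction -1.41 ± 0.24, adjusted p = 0.536) and the FOS response 1.38 smaller (-1.38 ± 0.41, adjusted p = 1), so neither passed the threshold of 0.05. The calls depended on the tool and on single lines. FOSB was called with DESeq2 (-1.50, adjusted p = 0.00341) and with library size as the only scaling (-1.50, adjusted p = 0.0207), and FOS without H23 (-1.55, adjusted p = 0.0329). With H820 left out the FOSB term was -1.43 ± 0.17 (adjusted p = 3.12e-10) and the FOS term -1.05 ± 0.16 (adjusted p = 2.63e-06), from 6 libraries with the spread set by H23 and H1975. Over all alternatives tried the adjusted p of the FOSB term ranged from 3.12e-10 to 0.839. EGR1, a zinc finger factor, was then also lower in EBC1 (-0.67 ± 0.15, adjusted p = 0.00321), while RHOB, PIM3 and JUND were higher (0.79, 0.57 and 0.57, adjusted p = 0.0048, 0.00861 and 0.0144). In that fit 571 genes were called higher in EBC1 (2.47% of 23141) and 48 lower (0.207%). The median GC content was 62.6% in the 571 and 44.1% in the 48, against 49.1% in all genes tested.

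GC content was the property that the EBC1 ratio followed most closely. Over 13824 genes with a GC value, the ratio and the GC content of the transcripts had a Spearman correlation of 0.549, against -0.12 in H23, -0.03 in H820 and -0.18 in H1975. These correlations run across genes, which are not independent, within 1 pair of libraries each. The median log2 ratio went from -0.02 in the lowest GC decile (median GC 38.2%) through 0.12 in the sixth (50.5%) to 0.48 in the highest (63.9%). GC alone accounted for 25.9% of the variance of the log2 ratio in EBC1, and GC, length, level and gene class together for 31.0%. The same 4 terms accounted for 3.9% in H23, 11.4% in H820 and 2.75% in H1975. Relative to the mean of the other lines, the highest GC decile stood below the lowest by 0.43 log2 units in the untreated EBC1 library (-0.43) and above it by 0.12 in the treated one. The other 6 libraries ranged from -0.40 to 0.58 on that scale, so the untreated EBC1 library lay just below their range and the treated one within it. The 2 libraries of each other line differed by less than the EBC1 pair.

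**Figure D2:**
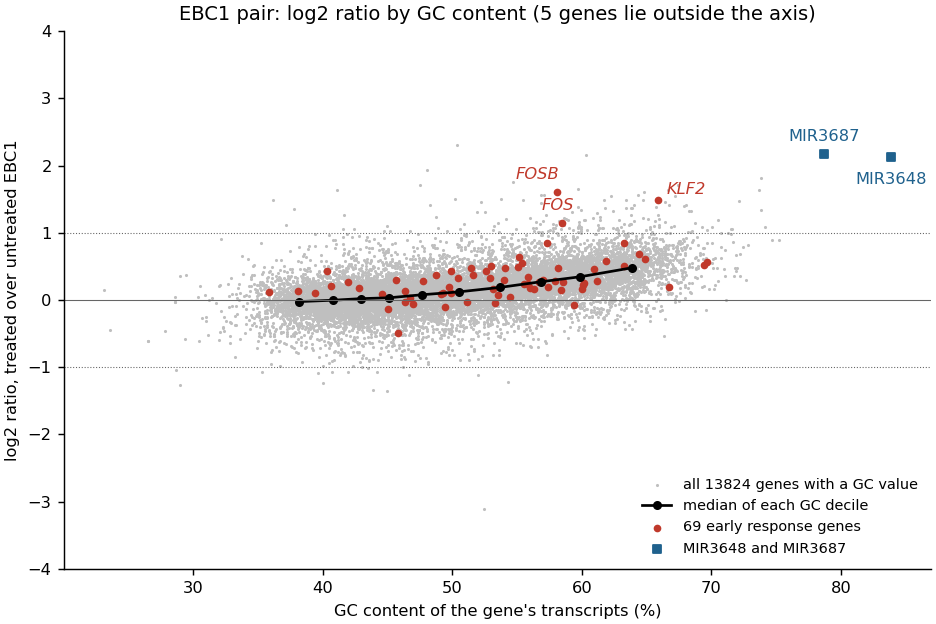
Log2 ratio of treated over untreated EBC1 against the GC content of each gene's transcripts in percent, with grey points for 13824 genes, red for 69 early response genes, blue squares for MIR3648 and MIR3687 and a black line through the median of each GC decile. The line climbs from -0.02 to 0.48, FOSB and FOS lie above it, and 5 genes fall outside the axis.

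Exonic length carried little of its own. Its Spearman correlation with the ratio was -0.14, and the median ratio was 0.16 in the shortest decile and 0.02 in the longest. Within each of 5 equal groups by GC content the correlation with length lay between -0.05 and 0.00, so genes of like GC and unlike length had nearly the same ratio. Length explained 1.88% of the variance on its own, expression level 2.81% and gene class 3.50%. H820 had nearly the same imbalance of depth as EBC1, 4.28 against 4.67, with a GC correlation of -0.03. That pair had 629 genes more than 2-fold higher (4.23% of 14883) and 130 more than 2-fold lower (0.873%). Level alone explained 7.18% of the variance of its ratio. What part depth had in either pair was not tested.

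Most genes past the 2-fold limit had few untreated counts. In the EBC1 pair 186 genes were more than 2-fold higher in the treated library (1.33% of 13967) and 16 were more than 2-fold lower (0.115%). Higher genes made up 92.1% of these calls, but 77.1% with library size as the only scaling, which moved the median of all genes from 0.13 to 0.01. Of the 186, 174 had fewer than 50 counts in the untreated library and 109 had 10 or fewer. Their median count was 9 untreated and 98 treated, and 135 of the 170 with a GC value lay in the 3 highest GC deciles. A total of 3741 genes met the 50-count limit through the deeper treated library alone, and 1 gene through the untreated library alone. The parts of depth and GC in these counts cannot be told apart here. Only 12 of the higher genes had 50 or more untreated counts, 0.117% of the 10225 genes with that many in both libraries. Besides FOSB, FOS, MIR3648 and MIR3687, the 12 were HES4, MIR4260, SCARNA6, MFSD10, C9orf16, EEF1A1P5, GATA6 and MTFP1, listed after their values were seen.

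**Figure D3:**
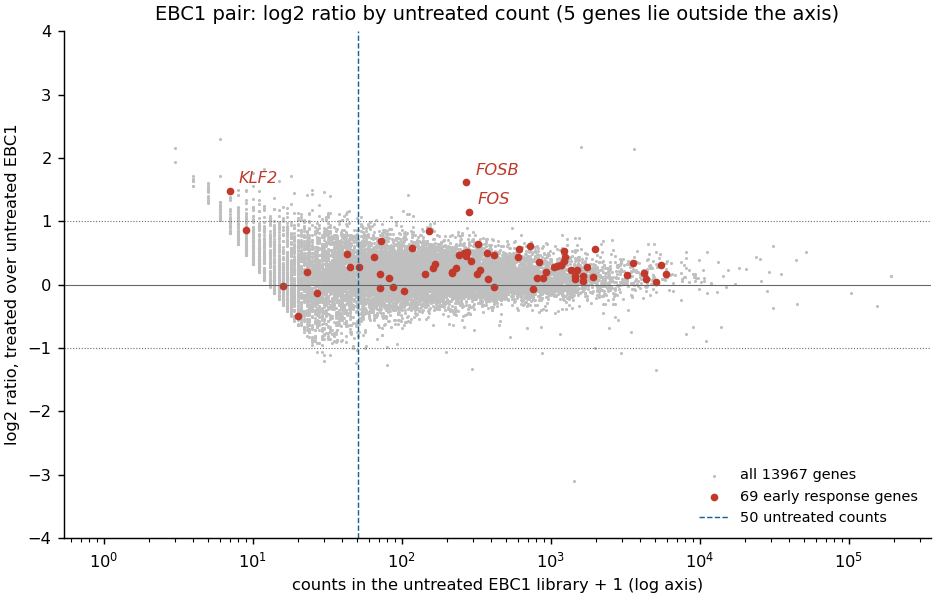
Log2 ratio of treated over untreated EBC1 against the untreated count plus 1 on a log axis, grey for 13967 genes and red for 69 early response genes, with a dashed line at 50 untreated counts and dotted lines at 2-fold. The spread widens to the left of the dashed line, where KLF2 lies with 6 untreated counts, and FOSB and FOS stand alone among red points above 2-fold to its right.

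The wider early response was examined in a list of 74 genes, of which 69 met the 50-count limit. Of these 69, 3 were more than 2-fold higher (FOSB, FOS and KLF2, 4.35%, against 1.33% of all genes) and 0 more than 2-fold lower. The other 5 (EGR2, EGR3, EGR4, NR4A3 and CCL2) had at most 33 counts in either library. Of the 69, 8 met the limit in the treated library alone, KLF2 among them. In all, 61 of the 69 had a ratio above 0, as did 69.7% of all genes, and the list's median was 0.27 against 0.13. With library size as the only scaling, 52 of the 69 and 50.8% of all genes had a ratio above 0. The early genes are richer in GC than most (median 54.1% against 49.1%), and the median that the 4 trends gave them was 0.22. After subtraction, the list's median was 0.05 and FOSB alone exceeded 1, while 0.195% of all 13824 genes did and 0.152% fell under -1. Of the 69, 42 had a remainder above 0, against 50.3% of all genes. For 37 of the 61 genes with a positive ratio, the trend was larger than what remained. At the edge of the limit, IL6 (19 and 56 counts) and BTG2 (15 and 63) were included, and NR4A3 (3 and 33) and EGR3 (5 and 25) were not.

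Among the 9 AP-1 subunits, all had a ratio above 0 (69.7% of all genes) and 2 exceeded 2-fold (1.33% of all genes). After the trend fit 66.7% of them had a remainder above 0, against 50.3% of all genes. FOSB had a trend value of 0.30, which left 1.31, and FOS a trend value of 0.32, which left 0.82. JUNB and JUND, GC-rich partners of the FOS proteins, had ratios of 0.61 and 0.56 with trend values of 0.48 and 0.64. JUND went from 380 to 562 CPM, and its remainder was -0.08. JUN had a ratio of 0.27 and a remainder of 0.01, and the FOS relative FOSL1 0.23 and -0.11. Among these 9, the other 7 had remainders from -0.13 (MAFF) to 0.17 (ATF3).

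The group of zinc finger, nuclear receptor and other transcription factors gave 12 genes with 50 counts, all with ratios above 0 (69.7% of all genes). A remainder above 0 was left in 75% of them, against 50.3% of all genes. EGR1, the zinc finger factor most used as an early marker, went from 117 to 172 CPM in EBC1, a log2 ratio of 0.55 (0.43 to 0.68) and a remainder of 0.32. Untreated and treated EGR1 stood at 182 and 403 CPM in H23, 25.1 and 235 in H820, and 72.2 and 175 in H1975. EGR1 did not pass the main edgeR test in these lines (1.77, adjusted p = 0.272), nor DESeq2, limma-voom or a minimum count of 50. It was called higher with library size only, with no filter and with any 1 line left out. KLF2, a Kruppel-like factor known from endothelium and T cells, had 6 and 83 counts, a ratio of 1.48 with a counting interval of 0.51 to 3.18 and a remainder of 0.73. KLF2 passed the 2-fold limit on those 6 untreated counts, at a GC content of 65.9%. KLF2 stood at 7.95 and 15.8 CPM in H23, 1.35 and 1.07 in H820, and 4.54 and 8.02 in H1975. The main edgeR test did not call KLF2 in these lines (0.78, adjusted p = 0.999). It was called higher without H820 and with no filter. NR4A1, an orphan nuclear receptor, had 0.28 and a remainder of -0.07, and BHLHE40, a circadian repressor, 0.08 and -0.13.

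The signalling brakes numbered 16, of which 13 had ratios above 0 (81.25%, against 69.7% of all genes) and 0 exceeded 2-fold. Their median remainder was -0.01, and 50% had a remainder above 0, against 50.3% of all genes. DUSP1, a nuclear phosphatase of MAP kinases, went from 62.4 to 97.3 CPM, a ratio of 0.64 (0.47 to 0.81) and a remainder of 0.41. DUSP6, which acts on ERK in the cytoplasm, had 0.43 and 0.31. DUSP8 and SOCS3, an inhibitor of JAK signalling, had ratios of 0.69 and 0.58 but remainders of 0.21 and 0.14. GADD45B, a stress sensor, had a ratio of -0.07 and a remainder of -0.39. Elsewhere DUSP1 stood at 19.0 and 51.2 CPM in H23, 39.6 and 118 in H820, and 70.9 and 102 in H1975 (1.13, edgeR adjusted p = 0.117). DUSP1 was called higher there with DESeq2, with library size only, with no filter and with any 1 line left out.

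Among the 15 short-lived mRNA and survival factors, 12 had ratios above 0 (80%, against 69.7% of all genes). Their median remainder was -0.11, and 40% had a remainder above 0, against 50.3% of all genes. RHOB, an early-induced small GTPase, was the highest, from 151 to 1166 counts or 29 to 52.3 CPM, a ratio of 0.84 (0.60 to 1.10) and a remainder of 0.53. In the other lines RHOB had ratios of 0.15, -0.35 and -0.03 in H23, H820 and H1975. BTG1, an antiproliferative factor of low GC content (40.3%), had a ratio of 0.44 that the trend did not lower, with a remainder of 0.45. PIM3, a survival kinase with a GC content of 69.5%, had a ratio of 0.53 and a remainder of -0.11.

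The secreted and matrix products gave 17 genes, 15 with ratios above 0 (88.2%, against 69.7% of all genes). Their median remainder was the highest of the 5 early groups, 0.17. Of the 17, 76.5% had a remainder above 0, against 50.3% of all genes. CTGF and CYR61, matrix proteins induced by serum and by YAP, had ratios of 0.48 and 0.51 and remainders of 0.38 and 0.31. CYR61 stood at 52.3 and 74.6 CPM in EBC1, 8.99 and 15.3 in H23, 20.8 and 62.7 in H820, and 14.6 and 26.4 in H1975 (1.03 in the other 3 lines, edgeR adjusted p = 0.0947). CYR61 was called higher in those lines with DESeq2, with library size only, with no filter, without H23 and without H820. The EGF receptor ligand AREG had a ratio of 0.27 and a remainder of 0.32. IL6 had the lowest ratio of the 69, -0.49 with a counting interval of -1.31 to 0.29 on 19 and 56 counts.

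**Figure D4:**
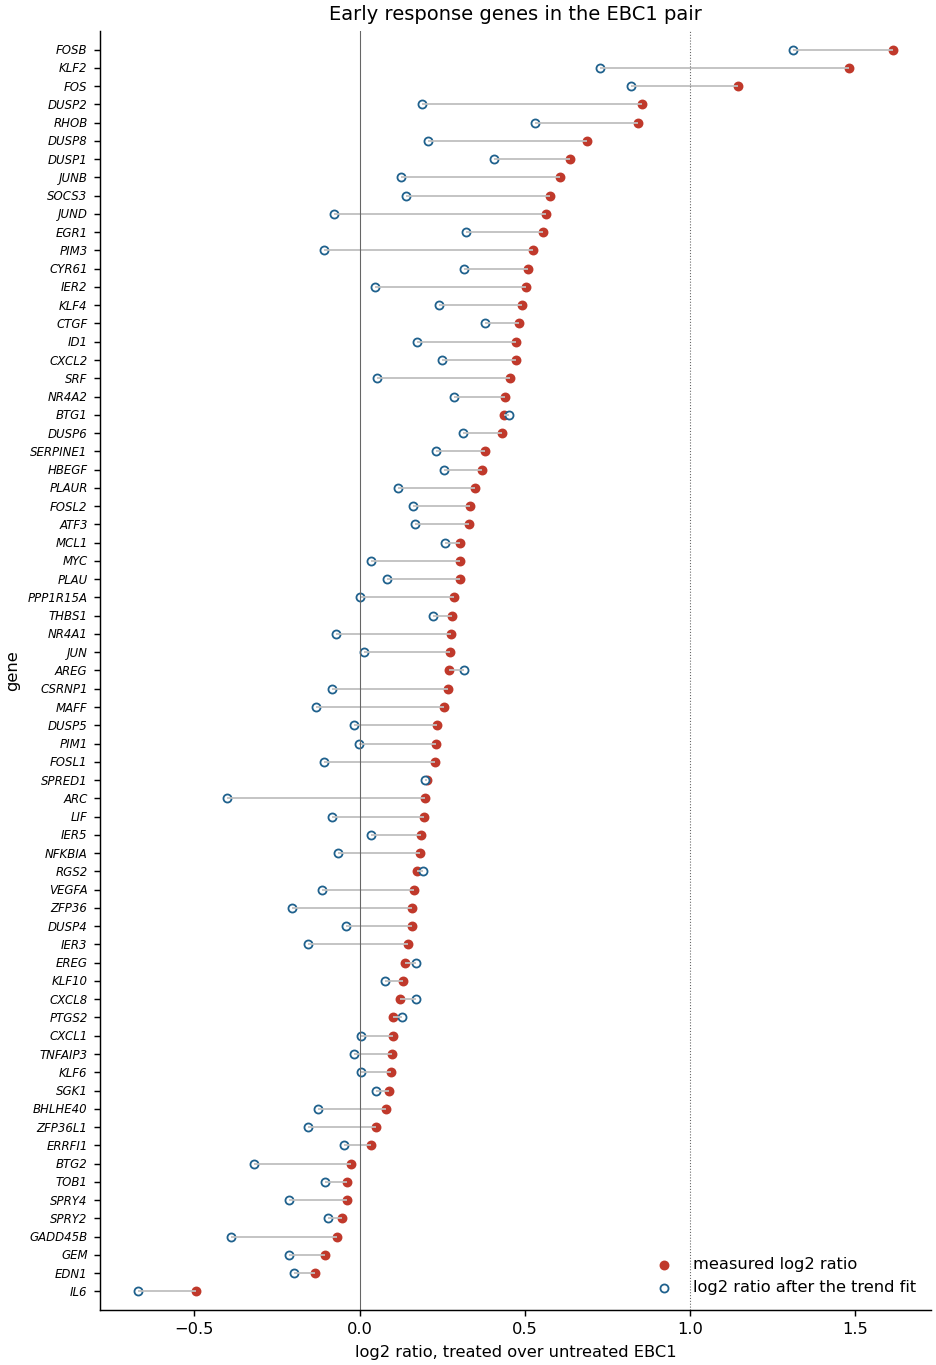
The 69 early response genes ordered by log2 ratio of treated over untreated EBC1, red for the measured ratio and open blue for the ratio after GC, length, level and gene class were fitted. Most blue points fall near 0, JUND and PIM3 move from above 0.5 to below 0, and FOSB alone stays beyond the dotted line at 2-fold.

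All 74 early genes were tested in the 3 other lines. With edgeR, 2 of these were called higher (FOSB and FOS, against 0.0211% of all genes) and 0 lower. DESeq2 called 4 higher (CYR61 and DUSP1 added), among 7 called of all 23733 genes. Library size alone called 5, among 9 of 23733, and no filter 14, among 80 of 41333. Without H1975 there were 4 among 8 of 21859, without H23 9 among 58 of 21665, and without H820 11 among 23 of 22466. In the edgeR fit 23 of the 74 were higher at an unadjusted p under 0.05, while 553 of all 23733 genes were under it in either direction. The median of all 74 was 0.26 against -0.00 over all genes. In the interaction test 0 of the 74 were called with edgeR, 0 with limma-voom and 1 with DESeq2 (FOSB), and 1093 of all 24185 genes had an unadjusted p under 0.05. With the same trends fitted to each line, the list's median remainder was highest in H820 (0.38), then H1975 (0.13), H23 (0.07) and EBC1 (0.05). These differences were not tested.

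MIR3648 and MIR3687 are short entries annotated on chromosome 21 (GRCh37 chr21:9825832-9826011 and chr21:9826203-9826263, plus strand), and both are known to lie in the external transcribed spacer of the ribosomal RNA precursor. The counts come from total RNA over the annotated hairpins and do not measure mature miRNA. The mature RNA annotated in the first is printed because its GC-rich letters show the base composition at issue, with its seed (bases 2 to 8) in capitals, from RefSeq on GRCh38.p14, plus strand of chr21:8987026-8987046.
hsa-miR-3648: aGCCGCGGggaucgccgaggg
MIR3648 had 3605 counts untreated and 67779 treated, or 693 and 3038 CPM, a log2 ratio of 2.13 (2.08 to 2.18). MIR3687 had 1596 and 30770 counts, or 307 and 1379 CPM, a ratio of 2.17. Their GC contents, 83.9% and 78.7%, were the only 2 at or above 78% among the genes compared, and the fitted trend of 1.21 and 1.11 at that end left 0.92 and 1.06. Summed, the 2 entries stood at 999 CPM in untreated EBC1 and 4418 in treated EBC1, and the other 6 libraries lay between 2938 and 4149. The untreated EBC1 library was thus the one that stood apart. Neither was called in the other 3 lines (0.13 and 0.09, edgeR adjusted p = 0.999 for both). Their edgeR interaction terms were 1.98 ± 0.43 (adjusted p = 1) and 2.06 ± 0.37 (adjusted p = 0.626) with all lines. DESeq2 called both (1.90 and 1.97, adjusted p = 2.34e-18 and 2.36e-06), as did library size only (adjusted p = 2.73e-04 and 0.00118), while limma-voom called neither (adjusted p = 0.227 for both). The edgeR terms were 2.01 and 2.11 (adjusted p = 1.53e-13 and 3.13e-17) without H820. MIR3648 and MIR3687 each have an identical copy in the GENCODE 29 transcripts, so reads could be divided between copies.

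The 3 genes that passed the interaction test were entries of, or near-identical to, U3, the small nucleolar RNA that guides early cleavage of the ribosomal RNA precursor. SNORD3C (GRCh37 chr17:19092978-19093558, minus strand) had 10 counts untreated and 7400 treated, and ENSG00000262202.4_4 (chr17:19015313-19015949, minus strand), 99.2% identical to SNORD3B-1, had 10 and 7446. SNORD3A (chr17:19091329-19092027, plus strand) had 1432 and 706 counts. The interaction terms were 7.43 ± 0.70, 7.74 ± 0.41 and -3.22 ± 0.34, with adjusted p of 0.00595, 3.26e-05 and 0.0132. Over 581 shared bases in the GENCODE 29 transcripts, SNORD3A and SNORD3C differ at 1 base, G108A counted from the 5′ end. The 61 bases around it, positions 78 to 138, are shown with that base in capitals.
SNORD3A: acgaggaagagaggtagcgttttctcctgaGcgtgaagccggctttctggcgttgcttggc
SNORD3C: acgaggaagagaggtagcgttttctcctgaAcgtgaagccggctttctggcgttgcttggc
In H1975 SNORD3C had 8187 and 5743 counts and ENSG00000262202.4_4 had 8189 and 5759, so these entries had nearly equal counts in each library where they were high. Whether the same fragments were counted for both was not tested. Summed over SNORD3A, SNORD3B-1, SNORD3B-2 and SNORD3C, U3 stood at 283 CPM in untreated and 371 CPM in treated EBC1, a log2 ratio of 0.39. With ENSG00000262202.4_4 added, the sum was 285 and 705 CPM, a log2 ratio of 1.31, so the change of the total depends on that entry. SNORD3C held 0.679% of the 4-entry counts in untreated EBC1 and 89.4% in treated EBC1. Its share was 96.3% and 95.9% in the H1975 pair and at most 0.632% in the H23 and H820 libraries. The assignment of reads among such near-identical copies is uncertain, and its part in these ratios was not tested.

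**Figure D5:**
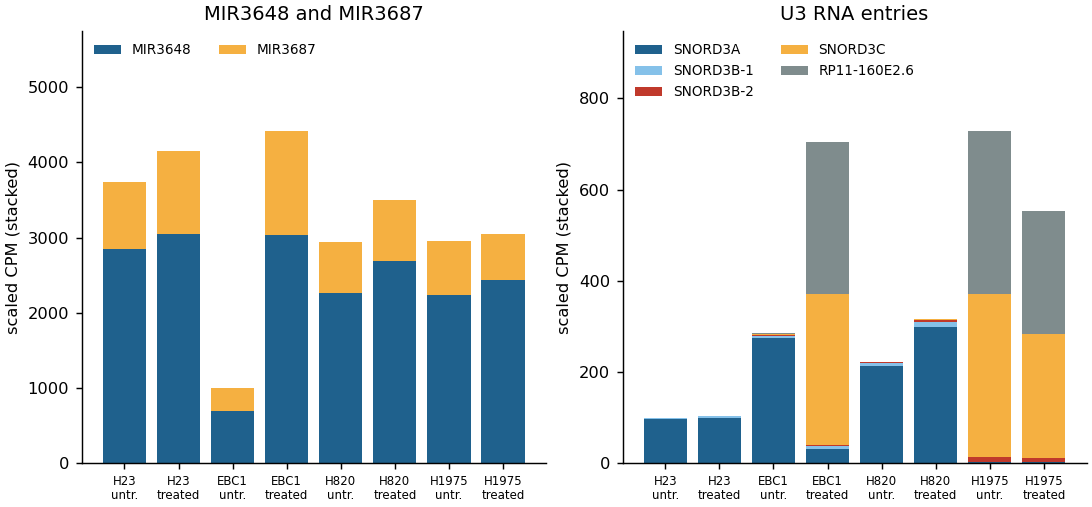
Stacked scaled CPM of MIR3648 and MIR3687 on the left and of 5 U3 entries on the right (the grey one is ENSG00000262202.4_4 under its symbol), 1 bar per library, untreated (untr.) and treated for each line. On the left untreated EBC1 is the low bar at 999 CPM, and on the right the EBC1 bar changes from mostly SNORD3A at 285 CPM to mostly SNORD3C and the grey entry at 705 CPM.

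Some pseudogenes had large ratios too. The HLA class I pseudogenes HLA-T and HLA-U had 0 counts untreated and 242 and 152 treated, at least 18.8-fold and 11.8-fold higher against a floor of 3 counts in the untreated library. The BLAST search found no near-identical copy of either. The 13 HLA class I genes and pseudogenes together went from 3928 to 5045 CPM, a log2 ratio of 0.36. EEF1A1P5, a pseudogene 99.7% identical to the elongation factor gene EEF1A1, had 109 and 1261 counts, a ratio of 1.42 against 0.25 for EEF1A1. RP11-44D5.2 (on chromosome 3, overlapped by RP11-44D5.1 and not annotated as a pseudogene) had 68 counts untreated and 3 treated. In H820 it went the other way, with 0 counts untreated and 126 treated, and H23 and H1975 had at most 4 per library.

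Most transcripts of the mitochondrial genome were lower in the treated library. All 13 mitochondrial mRNAs had ratios below 0, with a median of -0.75, and 3 were more than 2-fold lower. Of 19 mitochondrial transfer and ribosomal RNAs, 5 had ratios above 0, the highest MT-TQ at 0.24. MT-ND5, a subunit of complex I, went from 977 to 382 CPM, a ratio of -1.35, and MT-ATP6, an ATP synthase subunit whose gene overlaps MT-ATP8, from 565 to 268 CPM, -1.07. Mitochondrial genes made up 1.65% of untreated and 0.972% of treated counts. Over all 32 mitochondrial entries the median was -0.62, and -0.59 once GC alone was fitted, nearly the same value. Ratios of MT-ND5 in the other lines were -0.43 in H23, -0.97 in H820 and 0.38 in H1975, and edgeR gave -0.37 there (adjusted p = 0.999). MT-ATP6 (-1.14), MT-ATP8 (-1.31) and MT-ND2 (-1.68) lay lower in H820 than in EBC1. The median of the mitochondrial mRNAs was -0.15 in H23, -0.68 in H820 and 0.17 in H1975. That of the transfer and ribosomal RNAs was 0.24, 0.20 and 0.16, against -0.33 in EBC1. Mitochondrial genes held 4.07% of untreated and 2.47% of treated counts in H820, 2.01% and 2.07% in H23, and 2.34% and 2.56% in H1975. In EBC1 the 19 nuclear-encoded respiratory chain genes had a median of 0.11 and 0 beyond 2-fold.

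Gene classes differed in their medians before and after GC was fitted. Small RNAs had a median of 0.30 over 232 entries. After GC it was 0.11 over the 155 entries with a GC value, so the medians before and after cover different sets. Only 10 of the 77 miRNA entries had a GC value. Of the 232, 12.9% were more than 2-fold higher (1.33% of all genes), with 18 of 77 miRNA entries and 12 of 105 snoRNA entries. Long noncoding RNAs had a median of -0.01, which was -0.11 after GC, and sense intronic transcripts -0.16 before and after. MALAT1 and NEAT1, RNAs of nuclear speckles and paraspeckles, went from 29500 to 23309 CPM (-0.34) and from 8632 to 6956 CPM (-0.31). Protein-coding genes had a median of 0.14, and histone genes 0.27, which was 0.01 after GC.

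The remaining protein-coding genes with the highest ratios rested on few untreated counts. RP11-1212A22.4, an entry whose sequence is shared in full with PKD1P1, had 5 and 130 counts, a ratio of 2.30 (1.34 to 4.25), and was also called in the other 3 lines (2.02 ± 0.24, edgeR adjusted p = 0.0322). That call was lost with limma-voom (adjusted p = 0.082), with a minimum count of 50 (adjusted p = 0.244), without the pairing by line (adjusted p = 1) and without H1975 (adjusted p = 0.117). C4orf48 (11 and 182 counts), HIST2H3D (17 and 253), NMU (3 and 56), MT3 (3 and 54), TMEM238 (14 and 200), ZNF345 (3 and 53), HAS1 (4 and 65) and AC138969.4 (4 and 63) had ratios from 1.57 to 1.82. At the low end, beside mitochondrial genes, CCDC146 had a ratio of -1.23, WBP2NL -1.12, CUZD1 -1.01, CCDC150 -0.98, ZNF493 -0.92 and NPIPB3 -0.92. The latter 6 had 26 to 57 untreated counts.

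Genes of the PD-L1 pathway and of the growth factor receptors differed little. CD274 had 66 and 286 counts, or 12.7 and 12.8 CPM, a ratio of 0.02 (-0.37 to 0.42), and PDCD1 had 0 counts in both libraries. MET, the receptor for which EBC1 is known to carry an amplified gene, stood at 6789 and 7607 CPM (0.16), and EGFR at 246 and 262 CPM (0.09). Among 6 checkpoint genes with 50 counts, NECTIN2 had the highest ratio, 0.72, with a remainder of 0.32.

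Other pathway lists held 0 genes beyond 2-fold in either direction. Some of them share genes with the early list and are not separate from it. The JAK-STAT median is the ratio of PIM3 and the stress response median that of PPP1R15A, both early genes. The 18 YAP and TAZ targets had a median of 0.26 and a remainder of 0.16, with AJUBA at 0.71 and 0.51. The 16 NF-kB targets had a median of 0.15 and a remainder of 0.01, led by TNFAIP2 at 0.65 and 0.26. The 11 JAK-STAT targets had the highest median of these lists, 0.53, and a remainder of 0.13, with IRF1 at 0.69 and 0.45. The 11 stress response genes had 0.29 and 0.12, the 10 heat shock genes 0.05 and -0.10, the 18 antigen presentation genes 0.31 and 0.04, and the 11 MAP kinase feedback genes 0.20 and 0.01.

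Markers of other cells were low. Of 10 immune markers, 6 were at 0 in both libraries and CD68 alone exceeded 1 CPM in both (125 and 152). Of 10 fibroblast markers 4 were at 0, and the sum was 23.4 and 32.6 CPM. Of 9 endothelial markers 7 were at 0, and ESAM had 9 and 98 counts. COL1A1 made up most of the fibroblast sum, with 95 and 560 counts (18.3 and 25.1 CPM). The markers PTPRC, COL1A2 and CDH5 had at most 3 counts in either library.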

How the data were processed

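Total RNA was sequenced from 8 sphere cultures, after ribosomal depletion with a stranded kit per the labels' protocols. The authors deposited raw counts per gene, made with featureCounts 2.0.0 on GENCODE 28 lifted to GRCh37, reverse-stranded, primary alignments only, with reads allowed to count for overlapping genes, per the file headers. Alignment used STAR 2.7.3a, per the submitters' processing notes. No label pairs or numbers replicates, and each line gives 1 library per condition.

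Counts were scaled by TMM over the 8 libraries after filterByExpr (minimum count 10) in edgeR 4.0.16 (R 4.3.3), and log2 CPM used a prior count of 5. Trends were fitted by least squares with natural splines of 4 degrees of freedom for GC, log2 exonic length and mean log2 CPM, plus gene class. GC came from GENCODE 29 transcripts matched by gene ID (93.9% of genes). Treatment in the other 3 lines and the EBC1 interaction were tested two-sided with edgeR's quasi-likelihood test and Benjamini-Hochberg adjustment, with line as a term. DESeq2 1.42 and limma-voom (limma 3.58.1) were alternatives. The code of the fits was run on simulated data, with the same dispersion for every gene and a linear GC slope. These settings differ from the EBC1 pair, so that run does not measure how well the fits suit it. Near-identical copies were sought with BLAST 2.17.0. Members, gene lists and tests were chosen with earlier results of these data known. Named genes were the early list, FOSB, FOS, MIR3648, CD274, PDCD1, MET and EGFR. To these were added the 10 highest and 10 lowest protein-coding genes, the 6 highest and lowest others, up to 4 per list by size, and genes called in the interaction test. Exceptions are stated.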

Additional observations from a re-analysis of the deposited data

Results flagged for a closer look

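Each of the 3 results below differed between EBC1 and the other 3 lines in the edgeR interaction test. ENSG00000262202.4_4 had an interaction term of 7.74 log2 units, SNORD3C of 7.43 and SNORD3A of -3.22. The SNORD3C call was lost with DESeq2 (6.31, adjusted p = 1), with limma-voom (7.48, adjusted p = 0.143) and without H1975 (5.47, adjusted p = 0.0914), and the other 2 were called under every alternative tried. Every alternative reused the same EBC1 pair, in which these entries had some of the largest ratios. ENSG00000262202.4_4 had 3 and 2 counts in H23 and 3 and 17 in H820. Among the other lines, H1975 alone had more (8189 and 5759). The 3 entries are near-identical copies. The summed level of SNORD3A, SNORD3B-1, SNORD3B-2 and SNORD3C had a log2 ratio of 0.39 in EBC1, and of 1.31 with ENSG00000262202.4_4 added. EBC1 enters the test as 1 pair, so its spread comes from the other lines.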

How the results depend on the processing

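Depth limits the pair: the untreated EBC1 library held 5894946 counts, and 174 of the 186 higher genes had under 50 counts there. In the pair, genes over 2-fold higher and lower (186 and 16) became 108 and 32 with library size only, 131 and 25 with DESeq2 size factors, and 118 and 24 with TMM between the 2 EBC1 libraries. With 50 or more counts in both libraries they were 12 and 7, with 200 or more in 1 library 47 and 6, with no minimum 821 and 567, and with protein-coding genes only 89 and 8. A mean of 10 or more CPM, chosen after seeing the data, gave 25 and 7. The all-gene median moved from 0.13 to 0.01 with library size only, while the early list stayed 0.14 above it. Early genes over 2-fold became 5 with no minimum (EGR2 and NR4A3 added). Genes whose remainder exceeded 1 or fell under -1 (27 and 21) were 85 and 48 with length alone, and 64 and 53 with level alone. Those over 1 were 43 with GC alone and 98 with gene class alone. Both alternatives chosen after seeing the data, the mean of 10 CPM and 50 counts in both libraries, left 5 and 2. Early genes over 1 (FOSB) were 2, 2 and 3 with length, gene class or level alone.

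In the other 3 lines, the 5 genes called higher and 0 lower became 3 higher with limma-voom, 2 higher with a minimum count of 50, 80 and 17 with no filter, and 9 and 2 with library size only. Lines pair the libraries, and with no replicate block (no pairing by line) 0 were called in either direction, with FOSB at 3.06 (adjusted p = 1). Leaving out a line gave 8 to 58 higher (fewest without H1975, most without H23) and 5 to 11 lower. For the EBC1 response against the other lines, the 2 higher and 1 lower became 3 and 2 with DESeq2, 1 and 1 with limma-voom, 12 and 4 with no filter, and 4 and 2 with library size only. Against H23 and H1975 alone they were 571 and 48. Leaving out a line gave 1 (without H1975) to 571 higher and 2 to 48 lower (without H820). The cause of these moves was not tested.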
